A study of Mus musculus with 2 samples.

Results

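Transcripts of the small proline-rich (SPRR) proteins were followed in single epithelial cells of the mouse ileum. 5 genes were included, Sprr2a1, Sprr2a2, Sprr2a3, Sprr2b and Sprr1a, of 27998 genes listed in the count matrices. They are 5 of 15 rows whose symbol begins with Sprr. The 5 genes were selected from earlier results of these same 2 libraries, in which their level differed between the genotypes, so the difference between the genotypes is given as a description and no test was made of it.

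The study profiled ileal epithelium of C57BL/6 mice aged 8 weeks. 1 library came from wild-type (WT) mice and 1 from Tipe0-/- mice, which lack TIPE0, the protein encoded by Tnfaip8; the labels write this genotype as TNFAIP8-/-. The epithelium was released with EDTA and digested with enzymes to single cells, and no injury or drug was named for either library. Cells of 3 mice per genotype were used and no map from cells to mice was used here. Each genotype therefore counted as 1 sample, and differences between mice, libraries and genotypes cannot be told apart.

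SPRR proteins are short proteins rich in proline. In stratified epithelia, such as the epidermis, transglutaminases cross-link them to other proteins in the cornified envelope, the tough layer beneath the membrane of the outermost cells. Their genes lie together in the epidermal differentiation complex. The gut has no cornified envelope. There, Sprr2a is known as a gene that epithelial cells switch on after colonization by bacteria and in type 2 immune responses, and its protein is secreted and kills Gram-positive bacteria. Sprr1a is known as a gene induced by stress and tissue injury.

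All 5 genes lie on chromosome 3 (GRCm38). Sprr2a1 spans 92215799 to 92221911, Sprr2a2 spans 92215920 to 92256724, Sprr2a3 spans 92285417 to 92291405 and Sprr2b spans 92316620 to 92318085, all on the plus strand. Sprr1a spans 92483952 to 92485895 on the minus strand. Each has its coding sequence in 1 exon. One annotated transcript of Sprr2a2 starts inside Sprr2a1, so these 2 rows overlap.

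The stretches before the gene starts are shown because the Sprr2a copies and Sprr1a differed in where and how much they were detected. They come from RefSeq (GRCm38.p6), run 5′ to 3′ on the strand of the gene, and stop before the first annotated base of the transcript. All 5 genes were found in the promoter table. The 300 bases around the start of Sprr2a1 and of Sprr2a2 were identical, and 272 of them were identical to Sprr2a3, so only the Sprr2a3 stretch is given (chr3:92285054-92285303, plus strand). Sprr2b (chr3:92316455-92316619, plus strand) and Sprr1a (chr3:92485896-92486131, minus strand) follow. Against the Sprr2a copies, Sprr2b shared runs of at most 18 bases and Sprr1a runs of at most 9 bases. Capitals mark matches to 6 motifs searched on both strands.
Sprr2a3: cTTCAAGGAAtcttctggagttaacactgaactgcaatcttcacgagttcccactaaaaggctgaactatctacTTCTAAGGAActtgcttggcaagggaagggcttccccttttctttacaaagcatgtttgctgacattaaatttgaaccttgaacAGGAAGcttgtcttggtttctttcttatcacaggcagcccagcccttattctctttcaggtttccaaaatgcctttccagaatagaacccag
Sprr2b: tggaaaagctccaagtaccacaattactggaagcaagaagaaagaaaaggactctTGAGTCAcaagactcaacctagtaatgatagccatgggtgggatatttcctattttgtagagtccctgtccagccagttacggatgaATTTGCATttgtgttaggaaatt
Sprr1a: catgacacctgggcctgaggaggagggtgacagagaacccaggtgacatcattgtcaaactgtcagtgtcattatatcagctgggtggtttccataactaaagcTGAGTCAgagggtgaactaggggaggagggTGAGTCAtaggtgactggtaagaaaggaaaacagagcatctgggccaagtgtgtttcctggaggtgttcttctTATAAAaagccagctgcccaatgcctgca

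The motifs were the AP-1 site (TGANTCA), the octamer (ATTTGCAT), a core of ETS sites (AGGAAG), 2 palindromes of STAT sites (TTCNNNGAA and, with 1 base more, TTCNNNNGAA) and the TATA box (TATAAA). In the 250 bases before each of 32851 promoters in the table, these were found in 6.75%, 1.60%, 29.5%, 7.02%, 5.85% and 12.4%, respectively. Sprr1a had AP-1 matches 146 and 116 bases before its RefSeq start and a TATA box 43 bases before it. Sprr2b had 1 AP-1 match, 1 octamer match and a TATA box 29 bases before its RefSeq start, which lies past the end of the printed stretch. Sprr2a3 had 1 match to the ETS core and 1 to each STAT palindrome, and no match to the AP-1 letters in this window. Sprr2a1 and Sprr2a2 had the ETS core and the longer STAT palindrome. A match to letters is a description of the sequence and does not show that a factor binds there.

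The near-identical copies limit what the single rows mean. Cell Ranger counts a read only where it can be placed in 1 gene. In the last 500 bases of the annotated transcripts, where a 3′ library reads, 0 of 403 windows of 98 bases (a read length assumed here) from Sprr2a1 or Sprr2a2 were found in that gene alone among the Sprr genes. For Sprr2a3 this was 196 of 403 windows in the longer transcript and 302 of 403 in the shorter one. All 403 windows of Sprr2b and of Sprr1a were found in no other Sprr gene. With windows of 50 bases Sprr2a1 and Sprr2a2 again had 0, of 451, and Sprr2a3 had 100 and 230. The rows for Sprr2a1 and Sprr2a2 can therefore hold few of the reads of their own transcripts, and levels are compared between copies only with this limit. The sum of the 5 rows is given throughout.

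The WT library held 3402 cells with 38127808 unique molecular identifiers (UMIs, counts of captured mRNA molecules), a median of 7760 per cell. The Tipe0-/- library held 2006 cells with 23897126 UMIs, a median of 7308 per cell. Levels are given as CPM, the UMIs of a gene per 1000000 UMIs of the cells named. Intervals are exact 95% intervals (Poisson for levels, binomial for ratios, Clopper-Pearson for shares) and cover counting error only, not differences between mice or libraries. Mitochondrial genes took 6.59% of UMIs in WT and 8.56% in Tipe0-/-. The 2 libraries shared 9 cell barcodes, whose cells held 42 Sprr UMIs in WT and 3 in Tipe0-/-. The targeted gene, Tnfaip8, had 372 UMIs in WT (9.76 CPM) and 57 in Tipe0-/- (2.39 CPM). The median log2 ratio of Tipe0-/- over WT across the 11665 genes with at least 50 UMIs was 0.15, and the ratios below are not centred on it.

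Small proline-rich transcripts were 7.94-fold lower in the Tipe0-/- library than in the WT library when the 5 genes were summed (interval 7.48 to 8.45). WT cells held 14346 Sprr UMIs (376.3 CPM, interval 370.1 to 382.5) and Tipe0-/- cells held 1132 (47.4 CPM, interval 44.7 to 50.2). The levels of the 2 libraries did not overlap within counting error. Nearly all of the sum was Sprr2a3, which made up 97.2% of it in WT and 90.8% in Tipe0-/-.

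Sprr2a3, a copy of the bactericidal Sprr2a gene, had 13949 UMIs in WT (365.8 CPM) and 1028 in Tipe0-/- (43.0 CPM). It was 8.50-fold lower in Tipe0-/- (interval 7.98 to 9.07). Sprr2a1, its near-identical neighbour, had 137 UMIs in WT (3.59 CPM) and 21 in Tipe0-/- (0.88 CPM), a 4.09-fold difference (interval 2.57 to 6.82). The row of Sprr2a1 can hold few of the reads of its own transcripts, so it is not a separate measure of the difference in Sprr2a3. Sprr2a2 had 38 UMIs in WT (0.997 CPM) and 10 in Tipe0-/- (0.42 CPM), a 2.38-fold difference (interval 1.16 to 5.36). Sprr2b, a more distant Sprr2 gene, had 72 UMIs in WT (1.89 CPM) and 17 in Tipe0-/- (0.71 CPM), a 2.65-fold difference (interval 1.55 to 4.805). The intervals of Sprr2a1, Sprr2a2 and Sprr2b lay wholly below that of Sprr2a3. Sprr1a had the smallest difference between the libraries, but its interval overlapped those of Sprr2a2 and Sprr2b. It had 150 UMIs in WT (3.93 CPM) and 56 in Tipe0-/- (2.34 CPM), a 1.68-fold difference (interval 1.23 to 2.32). After each cell was thinned at random to 3000 UMIs, which left out no cell, 30 of 3402 WT cells (0.88%, interval 0.60 to 1.26) and 19 of 2006 Tipe0-/- cells (0.95%, interval 0.57 to 1.48) held Sprr1a, and these shares overlapped. For Sprr2a3 the shares were 28.2% (interval 26.7 to 29.8) and 8.62% (interval 7.43 to 9.94), which did not overlap.

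Of the 4 members with at least 50 UMIs over both libraries, 3 were lower by 2-fold or more in Tipe0-/- (Sprr2a1, Sprr2a3 and Sprr2b) and Sprr1a was not. Sprr2a2, with 48 UMIs, was not counted. Among all 11665 genes with at least 50 UMIs, 2.43% were lower by 2-fold or more, and 1.53% were higher by 2-fold or more. The members were picked on this contrast, so nothing is read from their share.

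**Figure D1:**
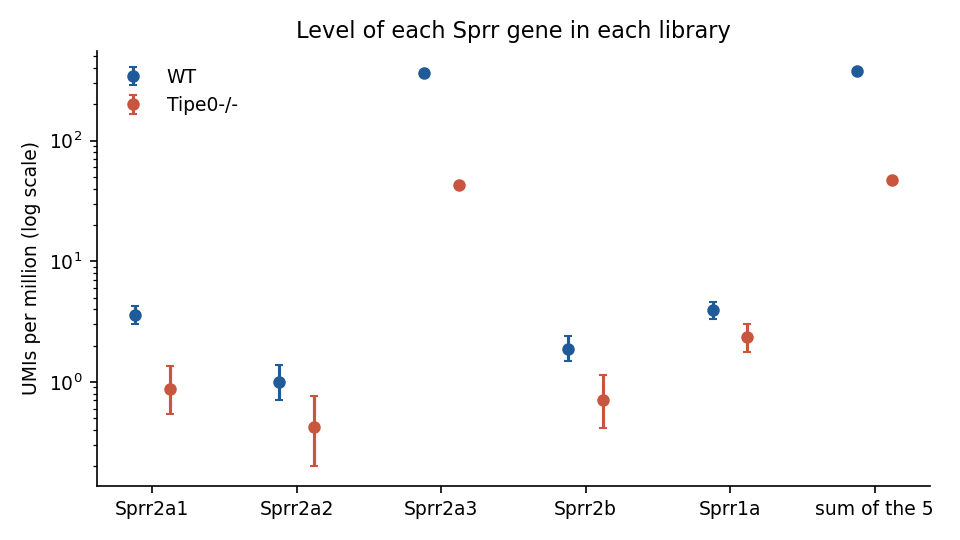
Level of each Sprr gene and of their sum in the WT (blue) and Tipe0-/- (red) libraries, in CPM on a log axis, with exact 95% Poisson intervals. Sprr2a3 lies at 365.8 in WT and 43.0 in Tipe0-/-, close to the sum, while the other 4 genes lie below 5 in both libraries.

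The other 10 Sprr rows were nearly silent. 8 of them (Sprr2d, Sprr2e, Sprr2f, Sprr2j-ps, Sprr2k, Sprr1b, Sprr3 and Sprr4) had 0 UMIs in both libraries, which allows a level of up to 0.079 CPM in WT and 0.13 CPM in Tipe0-/-. Sprr2h and Sprr2i each had 1 UMI, in WT. Markers of stratified epithelium were near 0 as well. Of 12 such markers, 6 had 0 UMIs in both libraries, among them Krt5 and Trp63, which define basal cells, and Ivl and Flg, which encode partners of SPRR proteins in the envelope. 11 of the 12 had fewer than 10 UMIs in each library, and the exception was the keratin gene Krt10, with 616 UMIs in WT and 607 in Tipe0-/-. The 12 markers summed to 16.5 CPM in WT and 26.0 CPM in Tipe0-/-. The defining markers of squamous cells were thus at or near 0 in both libraries.

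To ask which cells carried the transcripts, cells were clustered without the Sprr genes and without the genes that the study lists from its own comparison of the genotypes. 13 clusters were found, and 11 of them were named from marker genes. 3 clusters were enterocyte-like (absorptive cells), 3 goblet-like (mucus-secreting cells), and 1 each Paneth-like, tuft-like, stem-like, cycling-like and lymphocyte-like. The labels call the samples enterocytes, whereas enterocyte-like cells were 941 of 3402 cells in WT (27.7%) and 464 of 2006 in Tipe0-/- (23.1%). Summed over each library, enterocyte markers were at 9387 CPM in WT and 9178 CPM in Tipe0-/-, goblet markers at 15589 and 15276 CPM, and Paneth markers at 15824 and 13481 CPM. Tuft markers (175.0 and 93.8 CPM) and lymphocyte markers (162.3 and 41.3 CPM) were lower in Tipe0-/-, while stem markers (282.4 and 400.0 CPM) were higher. With the cell classes set to the same makeup in both libraries, the log2 ratio of the Sprr sum was -2.82, against -2.99 as counted. Of the Sprr UMIs, enterocyte-like cells held 84.3% in WT and 75.8% in Tipe0-/-, and goblet-like cells held 9.96% and 19.2%.

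Enterocyte-like cells had the highest Sprr level in both libraries and a lower level in Tipe0-/-. The sum was 1463 CPM in WT (interval 1437 to 1490) and 225.2 CPM in Tipe0-/- (interval 210.4 to 240.8), a 6.50-fold difference (interval 6.06 to 6.97). By cluster, the level was highest in the cells led by Apoa4, a lipoprotein gene of mature villus cells, with Slc6a19, an amino acid transporter gene. These had 2885 CPM in WT and 476.7 CPM in Tipe0-/-. The cluster led by Arg2, Ms4a18 and the ileal bile acid-binding gene Fabp6 had 705.2 CPM in WT and 75.9 CPM in Tipe0-/-. The cluster led by the iron exporter gene Slc40a1 had 177.8 CPM in WT and 20.5 CPM in Tipe0-/-. No enterocyte marker was among the 10 leading genes of this last cluster, which was named on 5 detected markers. The order of the 3 clusters was the same in both libraries, and their intervals did not overlap.

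**Figure D2:**
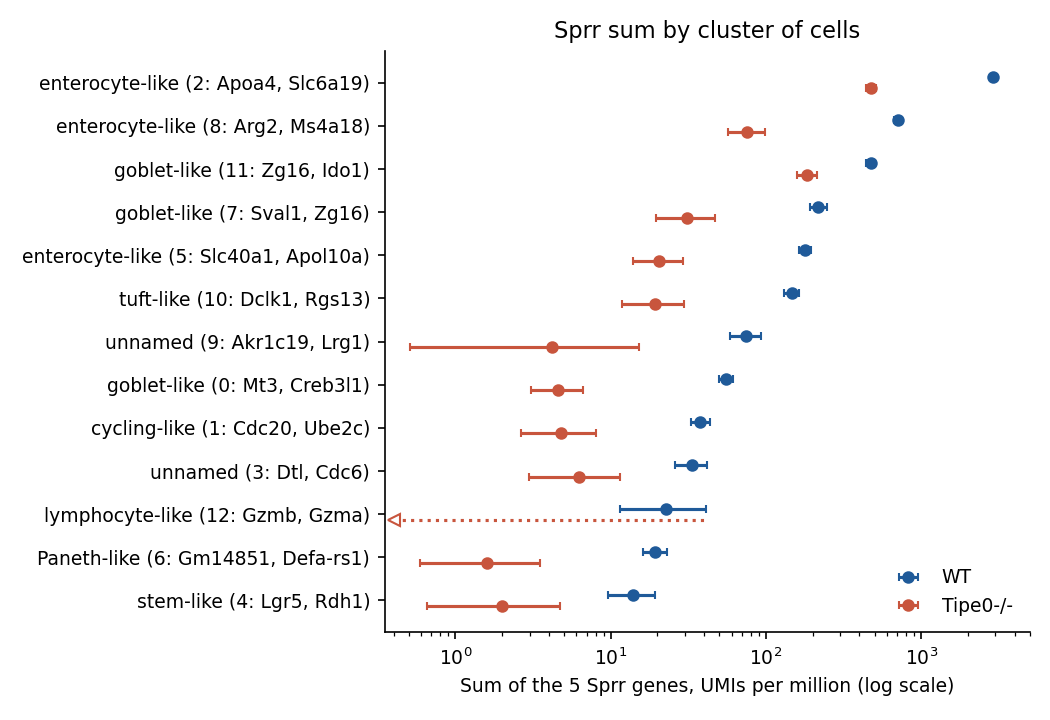
Sum of the 5 Sprr genes in each of the 13 clusters in the WT (blue) and Tipe0-/- (red) libraries, in CPM on a log axis, with exact 95% Poisson intervals and the 2 leading genes of each cluster. The Apoa4-led cluster is highest, at 2885 in WT and 476.7 in Tipe0-/-; the open arrow marks a count of 0 in lymphocyte-like cells of Tipe0-/-, whose interval reaches 39.9.

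Both the Sprr UMIs per cell and the share of cells with any were lower in Tipe0-/-. At a fixed depth this share falls when the level per cell falls, so the 2 were not separated. Cells thinned to 3000 UMIs were compared. In the Apoa4-led cluster 403 of 429 WT cells (93.9%, interval 91.2 to 96.0) then had a Sprr UMI, against 126 of 221 Tipe0-/- cells (57.0%, interval 50.2 to 63.6). The median cell held 7 Sprr UMIs in WT and 1 in Tipe0-/-. 150 WT cells (34.97%) and 4 Tipe0-/- cells (1.81%) held 10 or more. In the Arg2-led cluster 71.8% of WT cells and 20.3% of Tipe0-/- cells had a Sprr UMI, and in the Slc40a1-led cluster 33.0% and 7.32%. Without thinning, the shares in the Apoa4-led cluster were 97.7% in WT and 74.7% in Tipe0-/-.

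**Figure D3:**
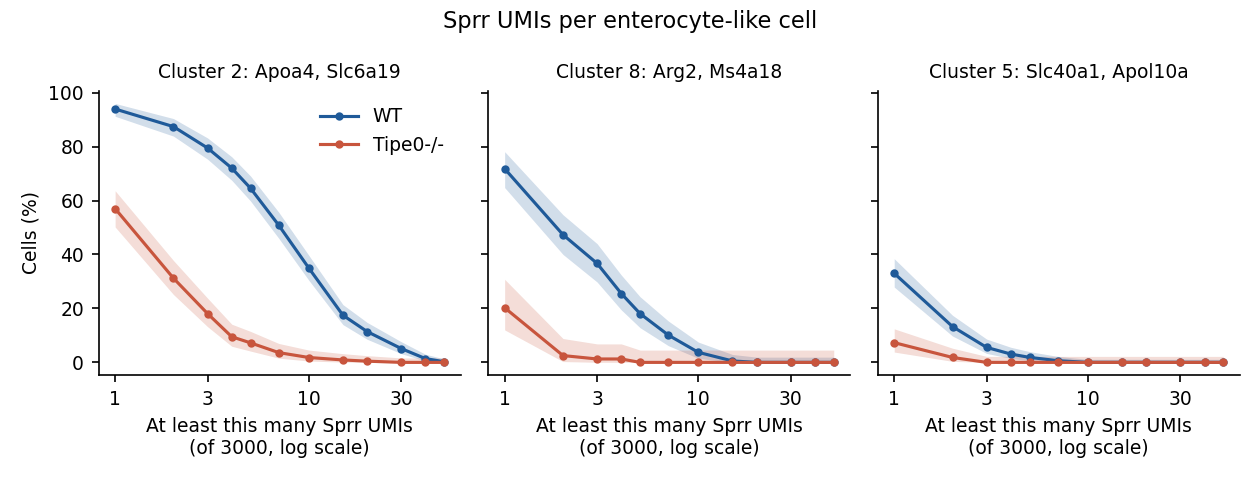
Share of cells in the 3 enterocyte-like clusters with at least a given number of Sprr UMIs after thinning to 3000 UMIs per cell (log axis), in WT (blue) and Tipe0-/- (red), with exact 95% binomial bands. In the Apoa4-led cluster 34.97% of WT cells and 1.81% of Tipe0-/- cells reach 10 UMIs.

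A few Tipe0-/- cells still held many Sprr UMIs. The richest Tipe0-/- cell held 107 of them among 11447 UMIs and lay in a goblet-like cluster, and the next held 67 among 7778 UMIs and lay in the Apoa4-led cluster. The third held 28. The 5 richest WT cells held between 110 and 243 and all lay in the Apoa4-led cluster. The richest 1% of cells held 21.5% of the Sprr UMIs in WT (34 cells) and 40.7% in Tipe0-/- (20 cells). These shares rest on unequal totals, and a share held by few cells rises as counts become sparse, so they are not read as a difference in concentration.

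Within enterocyte-like cells, Sprr levels were higher in cells with more transcripts of 6 villus tip genes (Ada, Nt5e, Slc28a2, Enpp3, Apoa4 and Egfr, genes of the cells near shedding). Cells were grouped by how many of their 3000 thinned UMIs came from these genes. Sprr2a3 was at 1224 CPM in the 839 WT cells with none, at 3294 CPM in the 60 with 1 to 4 and at 5065 CPM in the 42 with 5 or more. In Tipe0-/- it was at 175.5 CPM in 413 cells, 275.0 CPM in 30 cells and 912.2 CPM in 21 cells. The last value rests on 117 UMIs. 1 of those 21 cells was the one with 67 Sprr UMIs, and the level without it was not computed. Sprr2a3 was lower in Tipe0-/- in all 3 groups, by 6.98-fold (interval 6.43 to 7.58), 11.97-fold (interval 9.21 to 15.9) and 5.55-fold (interval 4.58 to 6.78). The groups are ranges of a sparse count and not types of cell, and a cell with none may still express these genes. Apoa4, a tip gene, also led the cluster with the most Sprr2a3. In WT Sprr2a3 was at 2810 CPM there, 689.6 CPM in the Arg2-led and 175.8 CPM in the Slc40a1-led cluster. The rise with tip UMIs was thus not separated from the difference between clusters. The tip genes themselves differed between the libraries in enterocyte-like cells. Log2 ratios were 0.97 for Ada, 0.54 for Slc28a2, -0.21 for Apoa4 and -0.05 for Egfr. The same tip count may therefore not mark the same villus position in both libraries.

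Among enterocyte-like cells, most Sprr1a UMIs lay in cells with tip transcripts. Goblet-like cells, which held 43.3% of the Sprr1a UMIs in WT and 37.5% in Tipe0-/-, were not grouped in this way. In Tipe0-/- 6 of the 15 enterocyte-like cells with Sprr1a had no tip UMI. Sprr1a was at 1.18 CPM in WT enterocyte-like cells with no tip UMI (9 UMIs) and at 262.6 CPM in those with 5 or more (52 UMIs). In Tipe0-/- it was at 2.30 CPM (8 UMIs) and 194.9 CPM (25 UMIs). In cells with 1 to 4 tip UMIs it was at 52.0 CPM in WT (23 UMIs in 3 cells) and 9.48 CPM in Tipe0-/- (2 UMIs in 1 cell), a 5.49-fold difference (interval 1.36 to 48.0). In the cells richest in tip transcripts the 2 libraries overlapped, with a 1.35-fold difference (interval 0.82 to 2.27), while Sprr2a3 in the same cells did not. 15 of the 25 Tipe0-/- Sprr1a UMIs there came from 1 cell, and the difference without that cell was not computed. The overlap for Sprr1a thus leans on this cell.

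**Figure D4:**
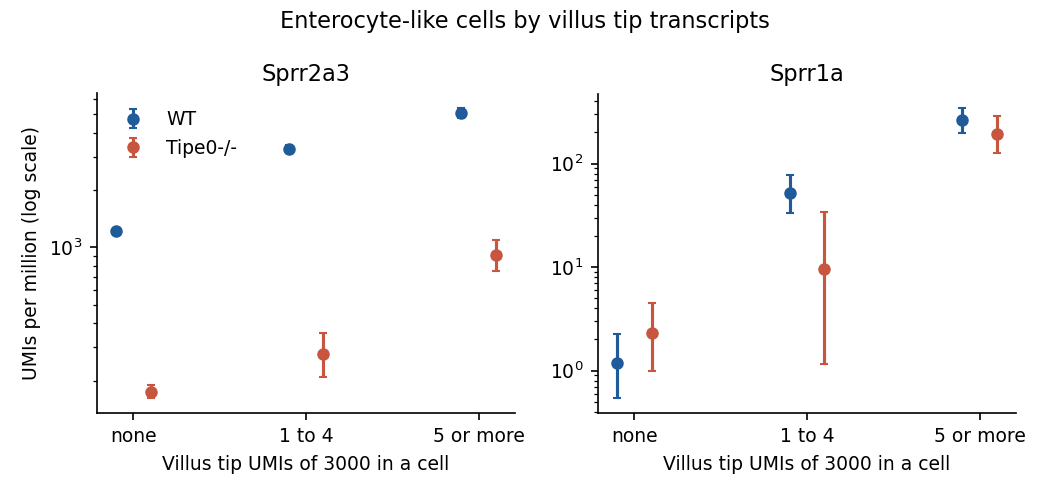
Sprr2a3 (left) and Sprr1a (right) in enterocyte-like cells grouped by the UMIs of 6 villus tip genes after thinning, in WT (blue) and Tipe0-/- (red), in CPM on log axes with exact 95% Poisson intervals. Sprr2a3 is lower in Tipe0-/- in each group, while Sprr1a in cells with 5 or more tip UMIs lies at 262.6 in WT and 194.9 in Tipe0-/- with overlapping intervals. 15 of the 25 Tipe0-/- Sprr1a UMIs in that group came from 1 cell.

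Sprr1a and Sprr2a3 also differed across the enterocyte-like clusters. In the Apoa4-led cluster Sprr1a had 78 UMIs in WT (21.8 CPM, interval 17.2 to 27.1) and 35 in Tipe0-/- (21.6 CPM, interval 15.03 to 30.02), a ratio of 1.01 (interval 0.67 to 1.55). In the same cells Sprr2a3 was at 2810 CPM in WT and 434.7 CPM in Tipe0-/-, and Sprr2a1 at 27.9 and 7.40 CPM. Few cells carried Sprr1a: 26 of 429 in WT (6.06%, interval 3.997 to 8.75) and 15 of 221 in Tipe0-/- (6.79%, interval 3.85 to 10.9). The shares overlapped. 15 of the 35 Tipe0-/- UMIs came from 1 cell. Without the cell richest in Sprr1a in each library, the levels were 17.4 CPM in WT and 12.4 CPM in Tipe0-/-, a ratio of 1.40 (interval 0.83 to 2.45). In the Slc40a1-led cluster Sprr1a had 0 UMIs in both libraries, where Sprr2a3 had 518 in WT and 28 in Tipe0-/-. Over all enterocyte-like cells 2 of the 4 members with at least 50 UMIs there, Sprr2a1 and Sprr2a3, were lower by 2-fold or more, beside 1.52% of 8491 genes.

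Of the 43 WT cells with a Sprr1a UMI, 39 also had a Sprr2a3 UMI, and of 25 in Tipe0-/- 11 had one. All 28 enterocyte-like WT cells with a Sprr1a UMI had a Sprr2a3 UMI, and Sprr2a3 was at 3916 CPM in them and 1371 CPM in the 913 without Sprr1a. In Tipe0-/- 11 of 15 such cells had a Sprr2a3 UMI, at 1193 CPM against 184.3 CPM in the 449 without. Among enterocyte-like cells, those with Sprr1a thus had the higher Sprr2a3 level in both libraries. They lay mostly in the Apoa4-led cluster (26 of 28 in WT and 15 of 15 in Tipe0-/-). Sprr2a3 was at 2810 CPM in WT and 434.7 CPM in Tipe0-/- over that whole cluster. Cells without Sprr1a included the lower Arg2-led and Slc40a1-led clusters, so the difference was not separated from that between clusters. 1 of the 15 Tipe0-/- cells was the one with 67 Sprr UMIs. Apoa4 was at 2454 CPM in the WT cells with Sprr1a and 51.4 CPM in those without.

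Goblet-like and tuft-like cells came next, and their intervals overlapped in both libraries. In goblet-like cells the Sprr sum was 148.0 CPM in WT (interval 140.4 to 155.9) and 28.1 CPM in Tipe0-/- (interval 24.5 to 32.1), a 5.26-fold difference (interval 4.56 to 6.10). 1 cell weighed heavily here, the Tipe0-/- cell with 107 Sprr UMIs, and without the richest cell of each library the log2 ratio of the class moved from -2.39 to -3.37. Doublets, droplets with more than 1 cell, bear on this class as well. Without the 5% of cells with the highest doublet scores in each library the log2 ratio was -3.88. In goblet-like cells both members with at least 50 UMIs, Sprr2a3 and Sprr1a, were lower by 2-fold or more, beside 1.44% of 10056 genes. For Sprr1a this rests on 65 UMIs in 14 WT cells, 18 of them from 1 cell, and 21 UMIs in 10 Tipe0-/- cells. The share of goblet-like cells with Sprr1a after thinning was 1.33% in WT and 1.35% in Tipe0-/-, and these shares overlapped.

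The 3 goblet-like clusters differed. The cluster led by Zg16, Ido1 and Clca1 had 471.6 CPM in WT and 184.3 CPM in Tipe0-/-, and without the richest cell of each library there 457.3 and 67.0 CPM. Without the cells of highest doublet score it had 389.7 CPM in WT and 20.1 CPM in Tipe0-/-. The cluster led by Sval1 and Zg16 had 217.5 CPM in WT and 31.1 CPM in Tipe0-/-. The cluster led by Mt3 and the secretory regulator genes Creb3l1 and Spdef had 55.2 CPM in WT and 4.59 CPM in Tipe0-/-. After thinning 13.7% of its WT cells (interval 10.6 to 17.3) had a Sprr UMI. This overlapped the interval of WT lymphocyte-like cells (3.11 to 15.1), which stand in below for free RNA. Before thinning the WT share in the Mt3-led cluster was 39.0% (interval 34.3 to 43.8), above the lymphocyte-like interval (3.83 to 16.4). Its WT level (interval 49.7 to 61.1 CPM) also lay above that of lymphocyte-like cells (11.4 to 40.9 CPM). How far this is free RNA was not tested. The sum was lower in Tipe0-/- in each of the 3 clusters. Sprr1a made up a larger part of the sum in these cells. Goblet-like cells held 43.3% of the Sprr1a UMIs of the WT library and 37.5% of those of Tipe0-/-. In the Sval1-led cluster 22 Sprr UMIs were found in Tipe0-/-, of which 15 were Sprr1a and 5 were Sprr2a3, while WT had 25 Sprr1a and 228 Sprr2a3 UMIs. Sprr1a was at 21.0 CPM in WT and 21.2 CPM in Tipe0-/- in that cluster. 18 of the 25 WT UMIs came from 1 cell, and without the cell richest in Sprr1a in each library the levels were 5.90 and 15.7 CPM. In the Zg16-led cluster Sprr1a was at 23.1 CPM in WT and 6.62 CPM in Tipe0-/- (6 UMIs). Of the 14 WT goblet-like cells with Sprr1a, 10 had a Sprr2a3 UMI, and of 10 in Tipe0-/- none had one. Of the 507 goblet-like cells of Tipe0-/- without Sprr1a, 8.48% had a Sprr2a3 UMI, so 10 cells are too few to show a difference. Sprr2a3 was at 24.5 CPM in those 507, among them the cell with 107 Sprr UMIs. Apoa4 was at 20.4 CPM in WT goblet-like cells with Sprr1a and 2.73 CPM in those without. In Tipe0-/- it was at 118.1 and 0.26 CPM. Whether the droplets with Sprr1a held more than 1 cell was not tested.

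**Figure D5:**
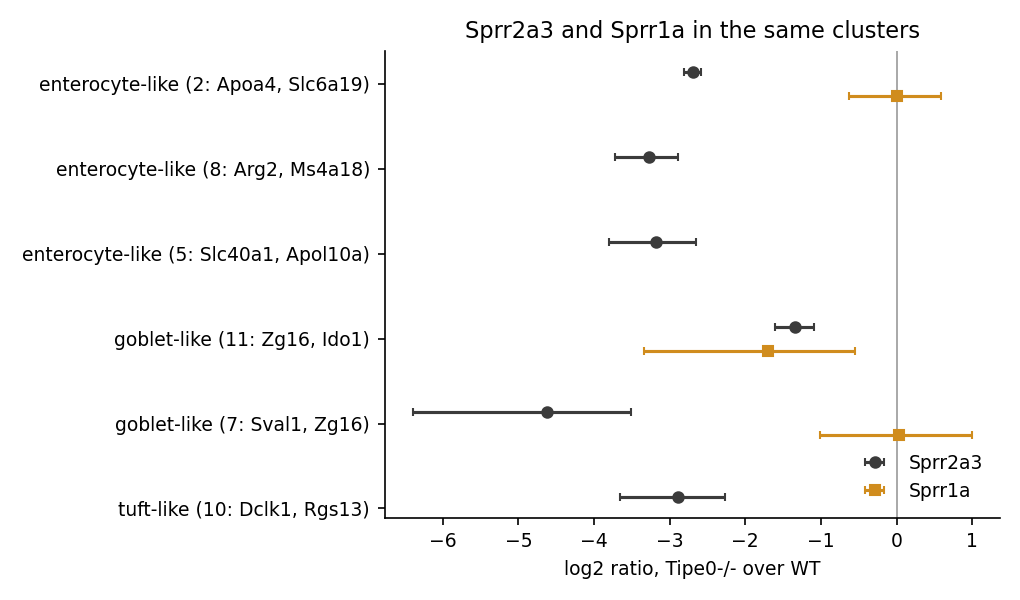
Log2 ratio of Tipe0-/- over WT for Sprr2a3 (dark circles) and Sprr1a (ochre squares) in 6 clusters, with exact 95% binomial intervals; no Sprr1a point is drawn where either library had 0 UMIs. In the Apoa4-led cluster the ratio is -2.69 for Sprr2a3 and 0.00 for Sprr1a, in the Sval1-led cluster -4.63 and 0.03, and in the Zg16-led cluster -1.34 and -1.71. Without the cell richest in Sprr1a in each library the Sprr1a ratios of these clusters, not drawn, are -0.46, 1.37 and -2.27.

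Tuft-like cells, the chemosensory cells of the epithelium, had a Sprr sum of 146.5 CPM in WT (310 UMIs) and 19.3 CPM in Tipe0-/- (20 UMIs), a 7.60-fold difference (interval 4.83 to 12.6). All but 1 of these UMIs in WT were Sprr2a3. 29 of 158 WT cells (18.4%, interval 12.7 to 25.3) and 3 of 50 Tipe0-/- cells (6.00%, interval 1.25 to 16.5) had a Sprr UMI after thinning. The WT interval overlapped that of lymphocyte-like cells (3.11 to 15.1), which stand in below for free RNA. Before thinning the WT share was 43.0% (interval 35.2 to 51.1), above the lymphocyte-like interval (3.83 to 16.4). The WT level (interval 130.6 to 163.8 CPM) also lay above that of lymphocyte-like cells (11.4 to 40.9 CPM). How far this is free RNA was not tested. Without the richest cell of each library in this cluster, the levels were 123.9 and 8.91 CPM, and without the cells of highest doublet score 114.4 and 23.8 CPM.

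After thinning, the share with a Sprr UMI in most of the remaining cells was near that of lymphocyte-like cells. Lymphocyte-like cells are not known to make these proteins and stand in for free RNA in the droplets. 7 of 92 WT lymphocyte-like cells had a Sprr UMI after thinning (7.61%, interval 3.11 to 15.1; 8.70% without thinning), at 22.8 CPM and a median depth of 4492 UMIs. None of the 17 Tipe0-/- cells had one, which allows a share of up to 17.6%. In WT the shares after thinning were 5.23% in stem-like cells, 6.38% in Paneth-like cells, 7.01% in the unnamed cluster led by Dtl and Cdc6 and 9.40% in cycling-like cells. These lay within the interval of the lymphocyte-like share, which is wide, and are not read as expression. Thinning takes more from deeper cells, and the median depth was 20982 UMIs in Paneth-like and 10292 in cycling-like WT cells. Without thinning the WT shares there were 26.6% (interval 21.5 to 32.2) and 28.0% (interval 23.7 to 32.5), above the lymphocyte-like interval (3.83 to 16.4). They were 10.1% in stem-like cells and 15.3% in the Dtl-led cluster. The likeness to lymphocyte-like cells thus depends on depth and does not decide whether these cells express the genes. The unnamed cluster led by Akr1c19, Lrg1 and gasdermin C genes lay higher after thinning, with 15.97% in WT (interval 10.4 to 23.0). In Tipe0-/- it had 0 of 77 cells, which allows up to 3.90%. Its WT interval overlapped that of lymphocyte-like cells. Before thinning its WT share was 29.2% (interval 21.9 to 37.3), above the lymphocyte-like interval (3.83 to 16.4). Its Sprr sum was 74.1 CPM in WT (76 UMIs) and 4.21 CPM in Tipe0-/- (2 UMIs). The WT level (interval 58.3 to 92.7 CPM) lay above that of lymphocyte-like cells (11.4 to 40.9 CPM). In these classes the sum was lower in Tipe0-/- too, by 6.90-fold in stem-like cells (35 and 5 UMIs) and 12.1-fold in Paneth-like cells (130 and 6 UMIs), and how far this is free RNA from enterocytes was not tested. For each 100 UMIs of 3 apolipoprotein genes of enterocytes (Apoa1, Apoa4 and Apoc3), WT had 37.9 Sprr UMIs in enterocyte-like cells, 36.7 in lymphocyte-like, 34.7 in stem-like, 52.4 in Paneth-like, 71.1 in goblet-like, 132.5 in tuft-like and 162.0 in cycling-like cells. It had 102.9 in the Dtl-led cluster and 271.4 in the Akr1c19-led cluster. In Tipe0-/- the numbers were 4.28 in enterocyte-like, 0 in lymphocyte-like, 8.77 in stem-like, 8.82 in Paneth-like, 13.955 in goblet-like, 44.4 in tuft-like and 20.3 in cycling-like cells, 21.7 in the Dtl-led cluster and 20 in the Akr1c19-led cluster. In Tipe0-/- the lymphocyte-like value rested on 1 apolipoprotein UMI, so its 0 is not a measured background, and the Akr1c19-led value rested on 10. The ratio was thus not the same in all classes. It did not separate goblet-like and tuft-like cells from those with a low share of cells with a Sprr UMI after thinning.

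From highest to lowest, the WT clusters ran from the Apoa4-led, Arg2-led and Zg16-led clusters to the Sval1-led, Slc40a1-led and tuft-like clusters. The first 3 did not overlap with their neighbours. The Sval1-led and Slc40a1-led clusters overlapped within counting error, as did the Slc40a1-led and tuft-like clusters. In Tipe0-/- the Zg16-led cluster came before the Arg2-led cluster. After removal of the richest cell in each cluster they were at 67.0 and 71.8 CPM, and their intervals overlapped. Without the cells of highest doublet score the order was reversed, at 20.1 CPM (interval 10.7 to 34.4) and 72.0 CPM (interval 53.2 to 95.2).

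8 genes followed the Sprr sum most closely over 18 units (9 groups of cells in 2 libraries), by Pearson's r of log2(CPM + 1) among 9839 genes with at least 200 UMIs and without the Sprr rows. The points share the library, depth and free RNA, and r is a description. They were Upp1 (r = 0.95), a uridine phosphorylase gene, Usp18 (0.93), Ifit1bl1 (0.93), Ubd (0.92), Rbp2 (0.91), Ifit1 (0.91), Ift20 (0.91) and Parp12 (0.91). The next gene, Oas1g, was at 0.90. Usp18, Ifit1bl1, Ifit1 and Parp12 are known as interferon-stimulated genes, Ubd encodes a ubiquitin-like modifier, and Rbp2 encodes a retinol-binding protein of enterocytes. In enterocyte-like cells Upp1 was at 716.7 CPM in WT and 291.9 CPM in Tipe0-/-, Ubd at 89.0 and 18.4 CPM, and Ifit1 at 163.6 and 94.8 CPM. All 8 were lower in Tipe0-/-, which the measure favours because both libraries enter it.

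No gene near the Sprr genes or of the envelope with at least 50 UMIs differed by 2-fold or more. Among all genes tested, 2.43% were lower by 2-fold or more and 1.53% were higher. Beside such small shares, nothing is read from the counts of these short lists. Of 46 other genes of the epidermal differentiation complex, 28 had 0 UMIs and 8 had at least 50. None of the 8 differed by 2-fold or more. 7 lay below 0 on the log2 scale, whereas 69.3% of all genes tested lay above 0. The median log2 ratio of the 8 was -0.36, against 0.15 over all genes. S100a10, which encodes a partner of annexin A2, was at 815.7 CPM in WT and 630.1 CPM in Tipe0-/-, and S100a6, a calcium-binding protein gene, at 411.7 and 323.4 CPM. S100a13, a further gene of this family, had a log2 ratio of -0.49. Tchh, which encodes trichohyalin, had 26 UMIs in each library and a log2 ratio of 0.67 (interval -0.17 to 1.52). Of 11 genes for cross-linking enzymes and their plakin and desmosome partners, 8 had at least 50 UMIs and none differed by 2-fold or more, with a median of 0.13. The transglutaminase gene Tgm2 was at 62.9 CPM in WT and 57.7 CPM in Tipe0-/-, and the desmoplakin gene Dsp at 154.6 and 179.4 CPM. Evpl, which encodes envoplakin, was at 15.2 and 12.9 CPM.

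Of 18 transcription factors named in the literature for Sprr promoters, 15 had at least 50 UMIs, with a median log2 ratio of -0.01. None differed by 2-fold or more, beside 2.43% of all genes tested that were lower and 1.53% that were higher. Klf4, a regulator of epithelial differentiation, was at 101.3 CPM in WT and 98.7 CPM in Tipe0-/-, and Elf3, an epithelial ETS factor, at 186.6 and 203.7 CPM. Jund, which encodes an AP-1 subunit, was at 262.4 and 239.9 CPM. Ets1 had a log2 ratio of -0.81 and Irf1, an interferon-response factor, of -0.60. Stat6 went the other way, at 26.4 CPM in WT and 32.5 CPM in Tipe0-/- (log2 ratio 0.30, interval 0.17 to 0.44). Of the 15 factors, 8 lay below 0. In enterocyte-like cells the median of 13 of them was 0.21, and Fos, which encodes an AP-1 subunit, was at 88.4 CPM in WT and 136.5 CPM in Tipe0-/-.

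Genes known to respond to microbes were lower. All 17 on the list had at least 50 UMIs and a log2 ratio below 0, whereas 69.3% of all genes tested lay above 0. 7 of the 17 were lower by 2-fold or more, beside 2.43% of all genes tested, and the median of the list was -0.92. This list was drawn up with results of these libraries known and is not independent evidence. Retnlb, which encodes a bactericidal goblet protein, was at 366.8 CPM in WT and 27.5 CPM in Tipe0-/-, and Saa1, an acute-phase gene, at 501.9 and 97.4 CPM. Reg3g, a bactericidal lectin gene, was at 21844 and 11738 CPM, and Reg3b at 40346 and 25185 CPM. Itln1 differed less over the whole library, at 2281 and 1834 CPM, and the log2 interval of Il18 (-0.30 to 0.077) included 0. Within goblet-like cells Itln1 was at 883.6 CPM in WT and 399.7 CPM in Tipe0-/-, a log2 ratio of -1.14. In enterocyte-like cells 8 of 16 were lower by 2-fold or more, beside 1.52% of all genes tested there. None of the lists had a gene higher by 2-fold or more there, beside 2.40% of all genes tested there. In goblet-like cells 7 of 15 were lower, beside 1.44% of all genes tested there. 1 gene of the lists (Reg1, of the villus bottom list) was higher by 2-fold or more, beside 0.935% of all genes tested there.

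Of 18 fetal-like and repair-associated genes, a group in which Sprr1a is often placed, 9 had at least 50 UMIs. Only Ly6a, the Sca-1 gene, was lower by 2-fold or more, at 212.7 CPM in WT and 30.2 CPM in Tipe0-/-. The claudin gene Cldn4 had a log2 ratio of 0.43 and the keratin gene Krt7 of 0.11, and the median was 0.29. Of 6 villus tip genes, 4 had at least 50 UMIs and none differed by 2-fold or more, with a median of 0.22 and with Apoa4 at 23.8 CPM in WT and 14.8 CPM in Tipe0-/-. Of 6 villus bottom genes, all had at least 50 UMIs, with a median of -0.40. The 4 below 0 (Reg3b, Reg3g, Il18 and Lypd8) were also on the list of microbe-responsive genes. This median is therefore not a result separate from that list. Nlrp6 (log2 ratio 0.11) and Reg1 (1.63) were not on it and lay above 0. None of the 6 was lower by 2-fold or more and Reg1 was higher, at 4.04 and 12.5 CPM. Beside each list in this paragraph stand 2.43% of all genes tested that were lower by 2-fold or more and 1.53% that were higher.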

How the data were processed

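Libraries were prepared with 10x Single Cell 3′ v2 chemistry. According to the study's methods, the authors made the deposited UMI counts with Cell Ranger 2.1.0 against mm10, which counts reads placed in 1 gene; an aggregated, depth-normalized matrix also described there was not used here. The deposited counts per gene and cell were used without further cell filters.

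UMIs were summed over cells and divided by the total UMIs of those cells. Log2 ratios added 0.5 to each sum. With 1 library per genotype no test was made. Clusters came from Seurat 5.3.0 (R 4.3.3; 532 variable genes, 14 principal components, resolution 0.8), with the Sprr rows and 117 genes of the study's genotype comparison left out, and were named from at least 3 detected markers. Doublets were not removed; Scrublet (Scanpy) called 15 WT and 3 Tipe0-/- cells, too few to rely on, so its scores were used by order only. The ratio step was checked on simulated data.

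Named genes were the 5 members, genes of each list by most UMIs or largest ratio, the 8 closest genes and Tnfaip8; the 3 apolipoprotein genes, the groups by tip UMIs and the checks without the richest cell were chosen after the data were seen. Members and lists were chosen with earlier results of these data known. Cluster names came from 8 marker lists, and no cluster passed for enteroendocrine cells, whose markers summed to 336.9 CPM in WT and 376.5 CPM in Tipe0-/-; cycling markers summed to 1094 and 1198 CPM. Stromal and endothelial markers summed to 3.30 CPM in WT and 2.30 CPM in Tipe0-/-, and myeloid markers to 15.3 and 17.6 CPM. Alternatives covered scaling, thinning, clustering, cell naming, doublets and count minimums.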

Additional observations from a re-analysis of the deposited data

How the results depend on the processing

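The direction of each ratio held under every alternative tried for it. The Sprr sum, the 5 members and the sum in enterocyte-like and goblet-like cells stayed lower in Tipe0-/-. The members were run only with other totals, median ratio scaling, thinning and mean log expression. After thinning the log2 intervals of Sprr2a2 (-3.99 to 0.26) and Sprr1a (-1.18 to 0.089) included 0. The share of cells with Sprr1a after thinning was 0.88% in WT and 0.95% in Tipe0-/-. Log2 ratios of Tipe0-/- over WT are given. For the sum over the whole library the main value was -2.99. It was -3.14 with scaling by the median ratio, -2.77 after thinning, -1.25 without Sprr2a3, -2.82 at the same makeup of cell classes, -3.40 without the 1% richest cells, -3.14 without the cells of highest doublet score and, in an alternative chosen after seeing the data, -3.11 without the richest cell of each library. As a difference of mean log2 expression per cell, which adds 1 to each value per 10000 UMIs and so shrinks low levels, it was -0.83, and for the members -0.030 (Sprr2a1), -0.0059 (Sprr2a2), -0.84 (Sprr2a3), -0.012 (Sprr2b) and -0.0028 (Sprr1a). For Sprr2a3, median ratio scaling gave -3.24 and thinning -2.88. In enterocyte-like cells the ratio was -2.70, -2.81 with cells named singly by marker score and -2.60 where the genotype comparison genes entered the clustering. In goblet-like cells it was -2.39 and became -1.94 with that naming, -3.69 with the genotype comparison genes kept, -2.15 at resolution 1.2, -3.88 without the highest doublet scores and -3.37 without the richest cell of each library.

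The share of cells with a Sprr UMI was 28.5% in WT and 9.47% in Tipe0-/- after thinning, 43.9% and 15.3% without thinning, and 18.1% and 4.24% at 2 UMIs or more. Naming cells singly by marker score moved the CPM in WT to 1595 in enterocyte-like, 180.9 in goblet-like, 303.7 in tuft-like, 40.9 in stem-like, 39.0 in Paneth-like and 223.1 in lymphocyte-like cells, and in Tipe0-/- to 46.9 in goblet-like and 134.4 in lymphocyte-like cells. 5 of the 8 genes closest to the Sprr sum were again among the closest 8 with clusters as units. The share of genes lower by 2-fold or more was 2.43%, 7.14% without a count minimum and 1.02% at 500 UMIs. The cause of these shifts was not tested. No paired analysis was possible because each genotype had 1 library and no test was made. At this depth, 3 UMIs in a library correspond to 0.079 CPM in WT and 0.13 CPM in Tipe0-/-, and Sprr2a1, Sprr2a2, Sprr2b and Sprr1a rest on few UMIs in Tipe0-/-.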
